A study of Mus musculus with 20 samples.

Results

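Day 4 of GATA6 induction in ES cells and XEN cells were compared for chromatin accessibility at regions bound by GATA6, to ask how far induced cells resemble an endoderm line taken from embryos. All 42402 regions on the autosomes and the X chromosome were included, out of 42403 in the table, and a single region on the Y chromosome was left out. The day 4 cells (d4, 2 samples) were KH2 ES cells of C57BL/6 x 129/Sv origin that carry a doxycycline-inducible Gata6 cassette and had received 1 µg/mL doxycycline for 96 h in medium with LIF. XEN cells (3 samples) were the X10 line, wild type and of CD1 origin, untreated and grown without LIF, and both kinds of cells were grown on fibroblast feeders that were removed by adsorption before the assay. Strain, LIF, doxycycline, the transgene and the history of the line all differ between the groups and cannot be told apart here. KH2-Gata6 cells are selected clones of 1 parental line, and XEN cells are 1 established line, so that the samples of a group repeat cultures and not embryos. Per the study's methods, the libraries of a group came from independent cultures. The p-values rest on a spread shared over KH2-Gata6 and XEN libraries and over regions, so they do not measure XEN cultures alone. Differences between 2 libraries of a group had an SD over regions of 0.55 in XEN cells and 0.39 at d4.

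GATA6 is the transcription factor that directs cells of the inner cell mass to the primitive endoderm (PrE), the tissue from which visceral and parietal endoderm of the yolk sac arise. XEN cells are the self-renewing culture form of this lineage and are known for a parietal character. SOX17 is a partner of GATA6 in the same programme, while OCT4, SOX2 and ESRRB, the pluripotency TFs (PTF), hold the ES cell state. ATAC-seq reads out where the Tn5 transposase can enter chromatin. The level of a region is given in RPM, its reads scaled to the size of the library, without division by its width, and differences are XEN minus d4 on the scale of log2(RPM + 0.03), after the median difference of each chromosome was subtracted.

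The deposited values are averages of a group, from which the reads of 2 d4 libraries (A and B) and 2 XEN libraries (A and B) were recovered at every region, under arbitrary letters. Although 3 XEN samples are labelled, every XEN value rests on 2 libraries, and which of the samples these are is not known. The d4 libraries held 2063204 and 2040068 reads in the regions and the XEN libraries 2371006 and 354179. Summed over all regions, they reached 10367 and 10902 RPM at d4 and 8222 and 8177 RPM in XEN cells. Unless subtracted, 1 added read per region is included in all read counts and levels. It was worth 0.00347 RPM in XEN library A, 0.0231 RPM in XEN library B, and 0.00502 and 0.00534 RPM at d4. The sum of XEN library B is therefore raised the most by it. The shallow XEN library B had a median of 6 reads per region, and 5.72% of its regions held no read beyond the 1 that was added to each region. Log2 levels of the pair of d4 libraries had a Pearson correlation across regions of 0.95 and those of the XEN pair of 0.86, in each case with a spread beyond counting noise (chi-square per degree of freedom 1.61 and 1.38). Regions of embryonic fibroblast marker genes, which would report leftover feeders, summed to 20.1 and 20.9 RPM at d4 and to 16.3 and 17.4 RPM in XEN cells. Of these 78 regions, 8 (10.3%) were called higher and 6 (7.69%) lower in XEN cells, against 8.58% and 9.4% of all regions.

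As a check of the labels, the region over the Gata6 start had 3.12 and 3.85 RPM at d4 and 2.38 and 1.32 RPM in XEN cells, against 0.86 RPM in uninduced cells (d0). A region 94.9 kb downstream of the Sox2 start had 0.42 and 0.53 RPM at d4, 0.0485 and 0.0923 RPM in XEN cells and 0.60 RPM at d0. Both went with the labels, but each region was picked. Over the whole list of ES cell markers, 17 of 124 regions were called lower in XEN cells and 6 higher. Of PrE and XEN markers, 42 of 232 were lower and 4 higher, so that list does not set XEN cells above d4 cells. KH2-Gata6 cells hold additional Gata6 coding sequence, so reads in Gata6 exons may come from more than the endogenous gene.

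The DNA of the regions with the largest differences is shown first, for the 3 regions in each direction that ranked highest among those with a window drawn here and a GATA6 match in the authors' motif scan. Each window is 121 bases of the plus strand of mm10, read 5′ to 3′ around the best GATA6 match, and capitals mark the best GATA6 and, where it falls inside, the best SOX17 match. The first 3 windows were more accessible in XEN cells and the last 3 less accessible.
Cited2 window, chr10:17690047-17690167: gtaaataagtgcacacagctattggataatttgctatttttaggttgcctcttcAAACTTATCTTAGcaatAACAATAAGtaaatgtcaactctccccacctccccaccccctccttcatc
Cntn4 window, chr6:105918359-105918479: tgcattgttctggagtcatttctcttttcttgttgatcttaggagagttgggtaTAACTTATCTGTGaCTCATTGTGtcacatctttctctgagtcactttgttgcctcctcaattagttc
Ptbp2 window, chr3:119795100-119795220: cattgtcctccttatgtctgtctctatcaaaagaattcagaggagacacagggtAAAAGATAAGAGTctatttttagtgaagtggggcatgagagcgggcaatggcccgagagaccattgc
Eps8 window, chr6:137645013-137645133: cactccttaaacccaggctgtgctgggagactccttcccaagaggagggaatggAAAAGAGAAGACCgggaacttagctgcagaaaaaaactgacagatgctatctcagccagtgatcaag
Col4a1 window, chr8:11317616-11317736: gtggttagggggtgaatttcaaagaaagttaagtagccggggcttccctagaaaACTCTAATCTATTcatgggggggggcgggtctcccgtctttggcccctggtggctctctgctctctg
Xkr9 window, chr1:13679152-13679272: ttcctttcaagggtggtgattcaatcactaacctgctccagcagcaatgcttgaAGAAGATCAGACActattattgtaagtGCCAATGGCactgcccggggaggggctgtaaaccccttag

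The match scores were 9.01 near Cited2, 10.4 near Cntn4 and 13.9 near Ptbp2, and 7.80 near Eps8, 8.61 near Col4a1 and 7.96 near Xkr9. All 3 matches of the first group hold the letters AGATAA in one orientation, but the best matches near Colq, Gm17555 and Speer4f1, also among the 10 named higher regions, do not. The higher region ranked first, in Garem1, is not printed. Over all regions, a high match score went with smaller shares of calls in both directions, gains included, and the drop was larger for losses. Of the 11381 regions with a high score, 7.69% were called higher and 6.79% lower, against 9.43% and 11.3% of the 12700 regions with a low score. The median differences were 0.05 and -0.04.

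XEN cells and d4 cells differed in both directions. A region was called where limma gave an adjusted p below 0.05 and the log2 difference exceeded 1 in size. By this rule 3639 regions were higher in XEN cells (8.58% of those tested) and 3986 were lower (9.4%). Past a 2-fold difference of the averages there were 3416 higher (8.06%) and 4222 lower regions (9.96%). Regions called higher had a median of 0.0522 RPM at d4 and 0.166 RPM in XEN cells, and regions called lower had 0.419 and 0.12 RPM. XEN library B held 3 reads or fewer, the added read included, at 34.2% of the lower regions and at 7.67% of the higher ones. The balance of the calls moved with the pseudocount, the centring and a filter on level. With 0.15 RPM added, 487 regions were higher and 1575 lower, or 23.6% gains. At regions of at least 0.1 RPM, 3098 were higher and 2303 lower, or 57.4% gains. Without centring, 2603 regions were higher and 5277 lower, so that 33.0% of the calls were gains against 47.7%, and with the promoter class of regions set to 0, an alternative added after the data were seen, 11437 were higher and 1201 lower, or 90.5% gains. Gains and losses below are therefore relative to the median region of a chromosome.

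**Figure D1:**
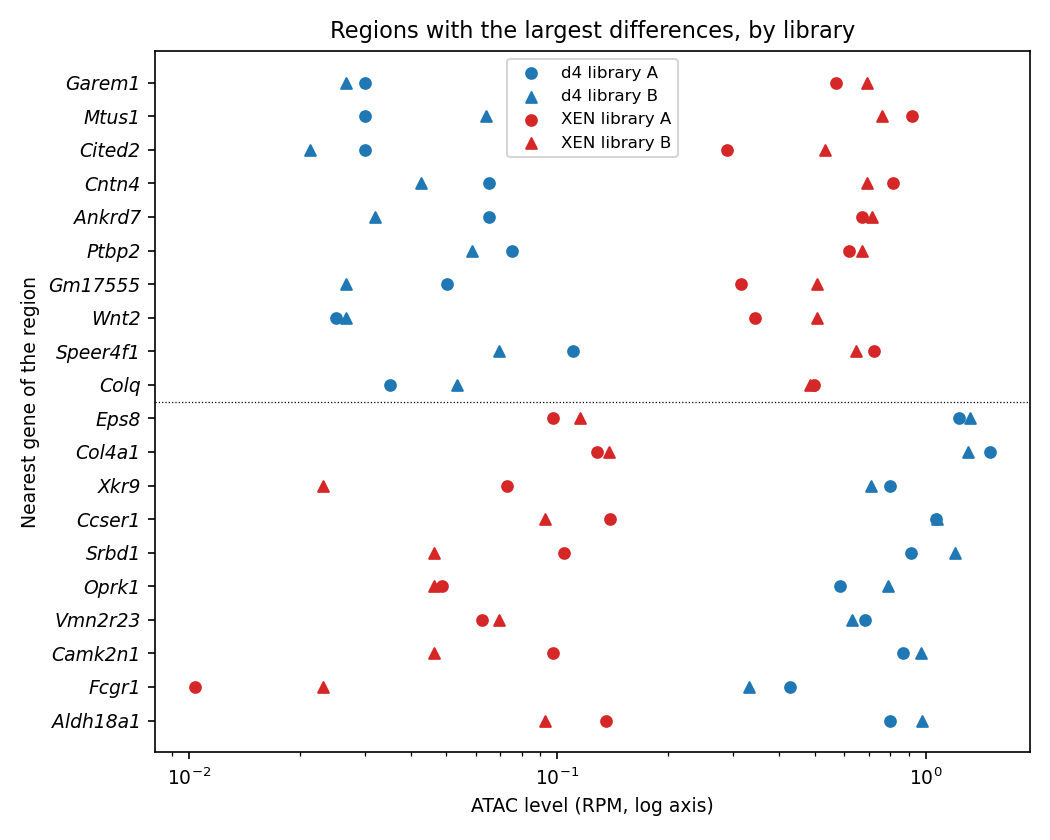
ATAC level in RPM (log axis) of the 10 regions with the largest and the 10 with the smallest difference, named by nearest gene, in d4 libraries (blue) and XEN libraries (red); circles are library A and triangles library B. For the upper 10 regions both XEN libraries lie at or above 0.288 RPM and both d4 libraries at or below 0.111 RPM, and for the lower 10 the order is turned.

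Among regions higher in XEN cells, the largest difference was in an intron of Garem1, an adaptor of growth factor signalling, at chr18:21243949-21244539. It had 0.0301 and 0.0267 RPM in the d4 libraries and 0.569 and 0.693 RPM in the XEN libraries (difference 3.40 ± 0.30, SE; adjusted p = 6.74e-07, limma). A region 21.6 kb upstream of Mtus1, which encodes a microtubule-associated protein, at chr8:41154999-41155512, had 0.0301 and 0.0641 RPM at d4 and 0.915 and 0.762 RPM in XEN cells (3.37 ± 0.33). Both were as low in uninduced cells, at 0.0412 and 0.0433 RPM. The region 33.1 kb upstream of Cited2, a transcriptional co-regulator that binds CBP/p300, had 0.0301 and 0.0214 RPM at d4 and 0.288 and 0.531 RPM in XEN cells (3.17 ± 0.38), where the XEN libraries were the farthest apart of the 10. Wnt2, a Wnt ligand, had a region 66.8 kb downstream of its start with 0.0251 and 0.0267 RPM at d4 and 0.343 and 0.508 RPM in XEN cells (2.87 ± 0.33). The other 6 lay near Cntn4, Ankrd7, Ptbp2, Gm17555, Speer4f1 and Colq, with differences between 2.83 and 3.10. All 10 were Late regions, without PTF binding, and at none of them did the average reach 0.1 RPM at d0 or d2.

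The 10 regions named as lower in XEN cells were all more accessible at d4 than at d0. An intron region of Eps8, which encodes a regulator of actin and of EGF receptor signalling, at chr6:137645049-137645735, had 1.23 and 1.31 RPM at d4 and 0.0971 and 0.115 RPM in XEN cells (difference -3.39 ± 0.31, adjusted p = 1.09e-07, limma), after 0.0786 RPM at d0 and 1.53 RPM at day 2 (d2). At an intron region of Col4a2 that lies nearest the start of Col4a1, at chr8:11317082-11318048, d4 libraries had 1.49 and 1.30 RPM and XEN libraries 0.128 and 0.139 RPM (-3.28 ± 0.28). Both XEN libraries fell well below both d4 libraries at each. A region upstream of Ccser1 had 1.07 and 1.07 RPM at d4 and 0.139 and 0.0923 RPM in XEN cells (-3.07 ± 0.30). A region 9.97 kb into Xkr9, of the family of phospholipid scramblases, had 0.799 and 0.711 RPM at d4 and 0.0728 RPM in XEN library A, while library B held only the added read there. The other 6, near Srbd1, Oprk1, Vmn2r23, Camk2n1, Fcgr1 and Aldh18a1, differed by -2.89 to -3.10. In XEN library B they held between 1 and 4 reads with the added read included, and the region near Fcgr1 held that read alone. All 10 were bound by SOX17, and 8 of them by PTF, at d0 or ectopically.

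The same contrast held over the whole sets. The median of the 3986 lower regions was 0.126 RPM at d0, 0.593 RPM at d2, 0.419 RPM at d4 and 0.12 RPM in XEN cells. That of the 3639 higher regions stayed between 0.0399 and 0.0522 RPM from d0 to d4 and was 0.166 RPM in XEN cells. At 65.9% of the lower regions the d4 average was more than 2-fold above d0, against 31% of all regions, and at 73.4% the XEN average was within 2-fold of d0, against 63.5% of all regions. Of the higher regions, 80.3% were within 2-fold of d0 at d4 (61.7% of all regions), 70.5% were more than 2-fold above d0 in XEN cells (27.7% of all), and 82.7% belonged to the closed class at d0 (61.3% of all regions). The XEN and d4 values were used to choose these sets, so their levels are a description, and the comparisons with d0 were made without centring.

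**Figure D2:**
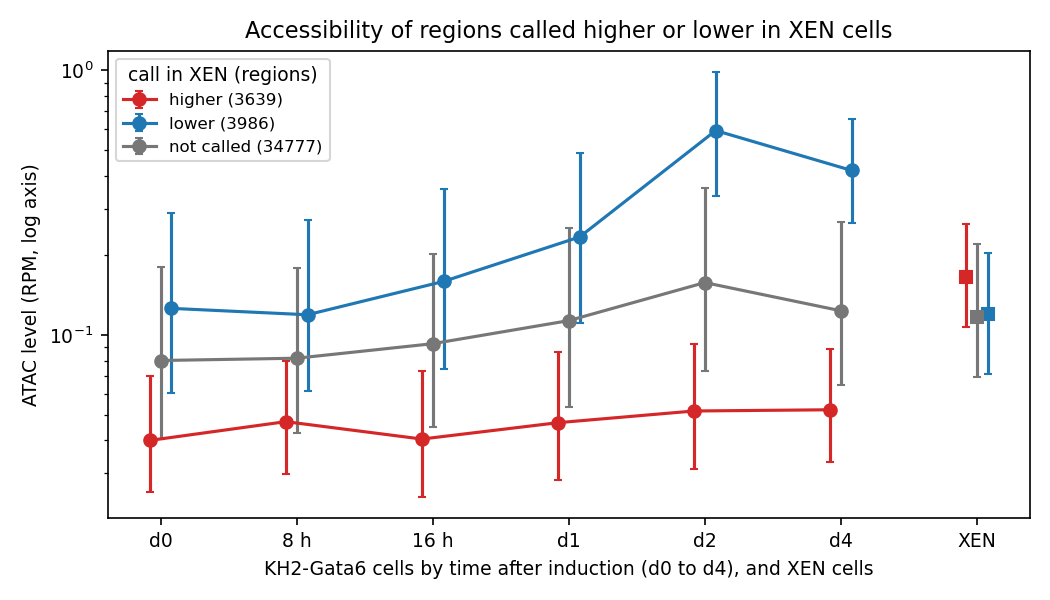
Median ATAC level in RPM (log axis) of regions called higher (red), lower (blue) or not called (grey) in XEN cells, at each time of induction and in XEN cells; bars span the lower to the upper quartile over regions. The lower set climbs to 0.593 RPM at d2 and is at 0.12 RPM in XEN cells, where the higher set is at 0.166 RPM.

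Regions that had opened by d2 carried most of the losses. Of the 15615 regions over 2-fold above d0 at d2, 3360 (21.5%) were lower in XEN cells and 207 (1.33%) were higher, with a median difference of -0.51. Of the other 26787 regions, 626 (2.34%) were lower and 3432 (12.8%) higher, with a median of 0.28. The d0 average was not used for the call, and d2 libraries entered it only through the shared spread and the centring. However, d4 follows d2 in the same cells. Regions opened by d2 had a median of 0.306 RPM at d4, and the others 0.082 RPM. The latter have less room for a loss, since the lowest XEN average of any region was 0.0133 RPM. The part of the level in these shares was not tested.

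The GATA6 clusters, defined by the authors from GATA6 ChIP in the same cells, differed in direction. The authors located GATA6 regions over the time course and in XEN cells, so a region may have entered the table through binding in XEN cells. Early&Constant regions, bound from the first hours on and kept, were lower in XEN cells at 1958 of 11874 regions (16.5%) and higher at 318 (2.68%), with a median difference of -0.36. Late regions, bound only after days of induction, were higher at 2394 of 14243 (16.8%) and lower at 1071 (7.52%), with a median of 0.15. Transient regions, where GATA6 is lost again, had 927 higher (5.69%) and 957 lower (5.88%) of 16285, with a median of 0.14. For Early&Constant regions the median was -0.28 in XEN library A and -0.37 in library B, and for Late regions 0.19 in both, while the median difference between the d4 libraries was -0.02 in both of these clusters. An exact permutation test over libraries gave p = 0.33 for each cluster, which is the smallest that 2 libraries against 2 allow. With the promoter class set to 0, the Early&Constant median turned to 0.18, and the Late and Transient medians were 0.69 and 0.68. Without centring the latter were 0.0693 and 0.0381, and after quantile normalisation 0.16 and 0.00845.

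SOX17 and PTF binding divided the regions further. Regions bound by SOX17 were lower at 3234 of 18861 (17.1%) and higher at 886 (4.70%), and regions without SOX17 were lower at 752 of 23541 (3.19%) and higher at 2753 (11.7%). Where PTF bound ectopically, that is only after induction, 1483 of 7038 regions were lower (21.1%) and 82 higher (1.17%). The largest share of losses was at Transient regions with SOX17 and ectopic PTF (150 of 533, 28.1%, 3 higher), followed by Late regions of the same kind (334 of 1259, 26.5%, 11 higher). Late regions with neither SOX17 nor PTF had the largest share of gains, at 1664 of 6414 (25.9%) against 185 lower (2.88%), with a median difference of 0.50 in XEN library A and 0.56 in library B. These 6414 regions made up 45.7% of all gains but 15.1% of all regions. Their median at d4 was 0.0699 RPM, against 0.219 and 0.372 RPM in the Transient and Late classes with SOX17 and ectopic PTF. All regions without SOX17 had a median of 0.0756 RPM at d4, and those with SOX17 0.275 RPM. Classes of low level have less room for a loss down to the lowest XEN average, 0.0133 RPM. The part of the level in these shares was not tested. Regions at which GATA6 binding dropped at d2 after Oct4 knockdown were lower in XEN cells at 604 of 2651 (22.8%) and higher at 29, and regions where it increased were lower at 236 of 3636 (6.49%) and higher at 421 (11.6%).

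**Figure D3:**
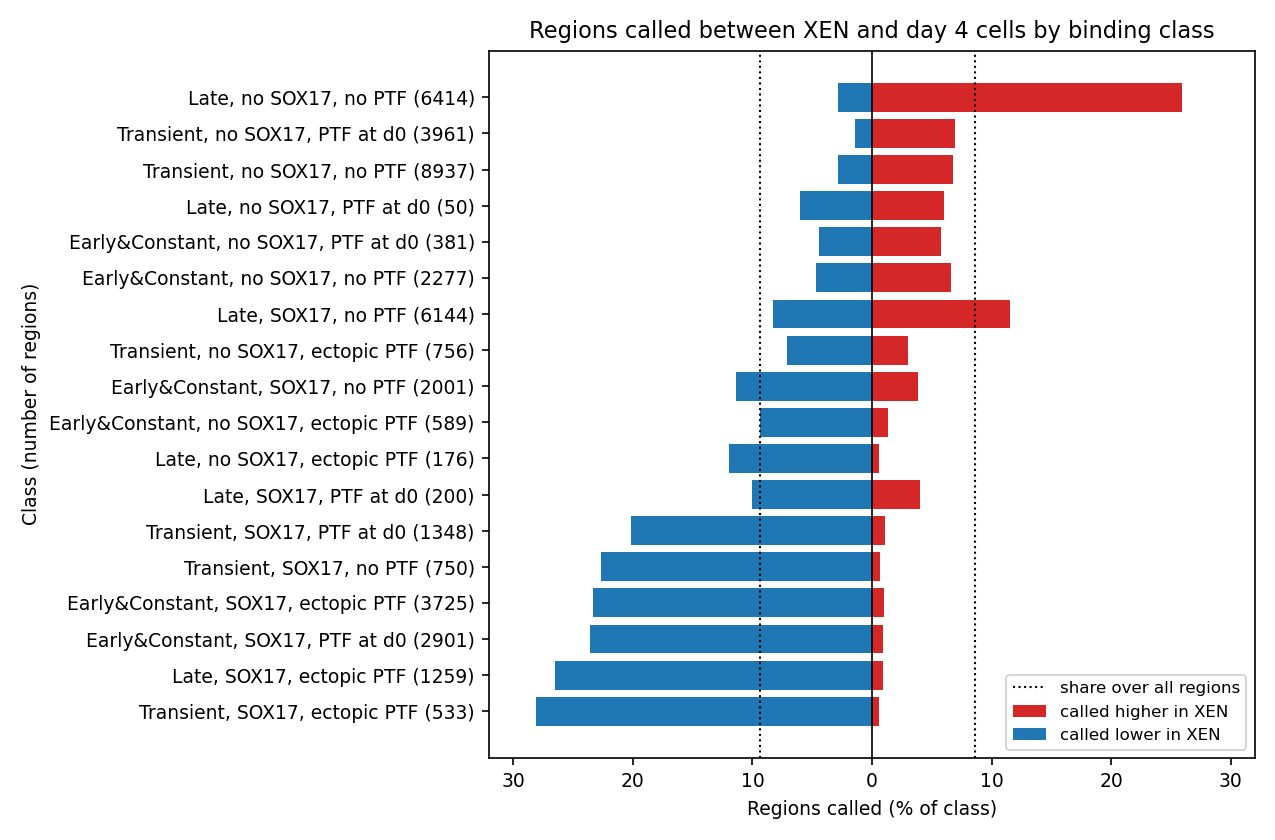
Share of regions called higher (red, right) or lower (blue, left) in XEN cells for each combination of GATA6 cluster, SOX17 class and PTF class, in percent of the class, ordered by median difference; dotted lines are the shares over all regions, 8.58% and 9.4%. Late regions without SOX17 and PTF reach 25.9% higher, and every class with SOX17 and ectopic PTF exceeds 23% lower.

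Regions that were open before induction also tended to the lower side. Those of the accessible class at d0 were lower at 491 of 3152 (15.6%) and higher at 49 (1.55%), and the closed class was higher at 3011 of 26002 (11.6%) and lower at 2074 (7.98%). With the regions in 10 groups by d0 level, the share called higher went from 18.5% in the lowest group to 1.16% in the highest, and the share called lower from 3.16% to 17.6%. The lowest group had a median of 0.044 RPM at d4, and the highest 0.631 RPM. The lowest XEN average of any region was 0.0133 RPM, so a loss past 2-fold had little room in the lowest group. How far the starting level sets these shares, and those of the closed class, was not tested. Among classes of ES cell histone marks, facultative heterochromatin, which carries H3K27me3, had 1333 of 9475 regions higher (14.1%) and 688 lower (7.26%). The promoter class had 19 of 2918 higher (0.65%) and 421 lower (14.4%), with a median of -0.28 in XEN library A and -0.72 in library B. GC content moved with these classes too. With the regions in 5 groups by GC content, 4.96% were higher and 13.1% lower in the group of highest GC, against 10.4% and 6.60% in that of lowest GC. The part of GC content in these shares was not tested. Shares by class, here and above, were counted only with the main centring. With the promoter class set to 0, 1201 of all regions were lower, against 3986.

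Short motifs were counted in 201 bases around each GATA6 summit, on both strands. The AP-1 motif TGANTCA, bound by FOS and JUN dimers, was in 10.7% of all windows, in 18.2% of those called higher and in 8.35% of those called lower. Of 4521 regions with it, 664 were higher (14.7%) and 333 lower (7.37%). Among Late regions, 26.9% of the 1909 with the AP-1 letters were higher, against 15.2% of the 12334 without. The RUNX motif TGTGGTT showed the reverse. It was in 5.97% of all windows, in 3.38% of those called higher and in 10.5% of those called lower. Thus 419 of 2531 regions with it were lower (16.6%) and 123 higher (4.86%), with a median difference of -0.23 in XEN library A and -0.21 in library B. The letters AGATAA, which GATA factors bind, were in 52.8% of higher and 46.8% of lower regions (54.3% of all), the SOX letters ACAATG in 27.0% and 25.7% (23.0% of all), and the OCT octamer ATGCAAAT in 2.47% and 3.06% (3.0% of all). Shares at TEAD letters, GGAATG, were 18.6% and 17.9% (18.8% of all).

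By nearest gene, the largest excess of gains was at Efna5. Of 25 regions nearest Efna5, an ephrin ligand, 13 were higher and 0 lower. The strongest, in an intron at chr17:62655565-62656232, had 0.0452 and 0.0748 RPM at d4 and 0.381 and 0.369 RPM in XEN cells (difference 2.50 ± 0.30, adjusted p = 1.36e-05, limma). Efnb2, another ephrin, had 12 of 36 higher and 2 lower, and its strongest region had 0.0301 and 0.0481 RPM at d4 and 0.322 and 0.323 RPM in XEN cells (2.21 ± 0.36). Igsf11, an adhesion molecule of the immunoglobulin superfamily, had 9 of 14 higher and 0 lower, with differences of averages of its regions between 0.41 and 2.57. Its strongest region went from 0.0603 and 0.0481 RPM to 0.576 and 0.60 RPM. The adhesion GPCR genes Adgrl2 (11 of 37 higher, 1 lower) and Adgrl4 (7 of 13, 0 lower), Robo2, a receptor for SLIT ligands (7 of 23, 0 lower), and Magi1, a scaffold of tight junctions (11 of 47, 2 lower), followed. The remaining 3 of the 10 genes with the largest excess of gains were BC052040 (8 of 21), Mcc (6 of 14) and Fignl1 (6 of 12), each with 0 lower.

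By nearest start, the gene with the largest excess of losses was Col4a2, one of the type IV collagen chains of basement membranes, with 12 of 13 regions lower. Col4a1, which is transcribed in the opposite direction from the shared promoter, had 3 of 7 lower. The nearest start is not that of the host gene here. Regions counted for Col4a2 lie in Col4a1 or outside genes, and those counted for Col4a1 lie in Col4a2. Together the lower regions formed the longest run of neighbouring regions called in the same direction, 15 regions over 125 kb. This run, at chr8:11197251-11321948, covers Col4a1 and the first part of Col4a2. The median of its regions was 0.417 RPM at d4 and 0.101 RPM in XEN cells. The most accessible of them, at chr8:11308478-11310403 in Col4a1, had 3.11 and 3.52 RPM at d4 and 0.513 and 0.277 RPM in XEN cells (-3.19 ± 0.31, adjusted p = 2.38e-07, limma). It had risen from 0.691 RPM at d0 to 4.45 RPM at d2. Beyond the run, the 4 regions from 54.8 to 72.7 kb into Col4a2 were not called. The first of these had 0.648 and 0.428 RPM at d4 and 0.534 and 0.485 RPM in XEN cells, so that the groups overlapped.

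**Figure D4:**
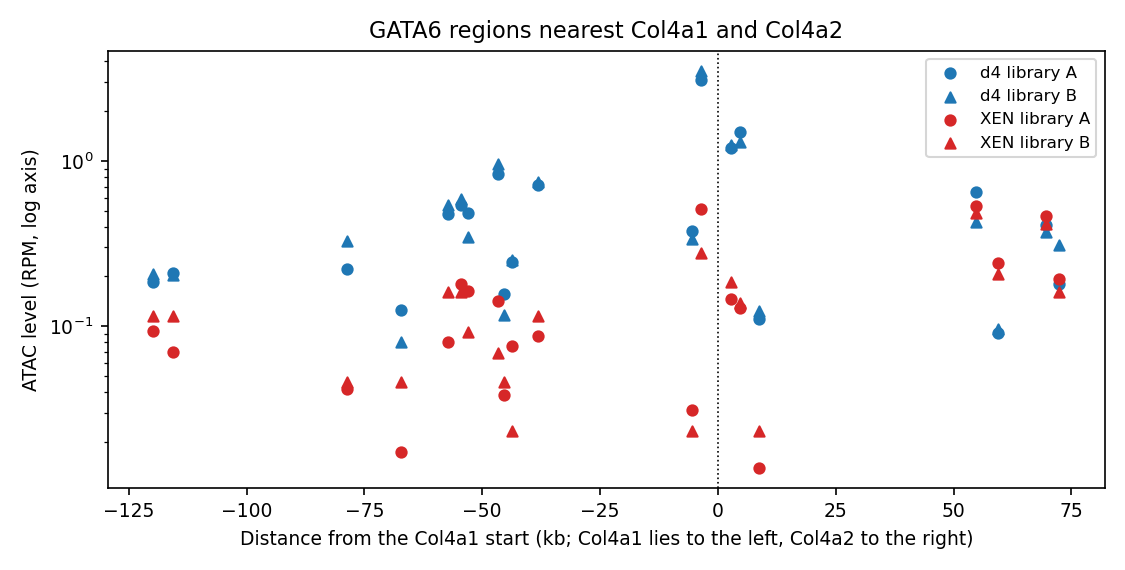
ATAC level in RPM (log axis) of the 20 regions nearest Col4a1 or Col4a2 against distance in kb from the start of Col4a1, for d4 libraries (blue) and XEN libraries (red). The XEN libraries lie under the d4 libraries up to 8.93 kb to the right of the start, while the 4 regions from 54.8 kb on show no common order.

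Runs of at least 3 neighbouring regions called alike numbered 97 for gains, with 323 regions, and 87 for losses, with 297. All 7 regions nearest Naaladl2 were lower, over 927 kb of chromosome 3, with a median of 0.338 RPM at d4 and 0.0387 RPM in XEN cells. Rbpms, an RNA-binding protein, had 10 of 27 lower, Plcb4, a phospholipase C, 8 of 20, Grm8, a glutamate receptor, 7 of 15, and B430218F22Rik and Snx27, a sorting nexin of endosomes, 6 of 10 and 6 of 11. None of these had a region called higher. The strongest at Car2, a carbonic anhydrase with 5 of 9 lower, had 1.74 and 1.80 RPM at d4 and 0.156 and 0.231 RPM in XEN cells (-2.86 ± 0.30). Sall4, a zinc finger factor of ES cells and of PrE, had 6 of 14 lower. Of runs of at least 5 neighbouring regions there were 5 in each direction, holding 27 higher and 38 lower regions, and the longest higher run had 7 regions over 101 kb near Prag1 and Lonrf1, with medians of 0.0669 RPM at d4 and 0.288 RPM in XEN cells. Of 1628 genes with at least 2 called regions, 466 had gains alone, 538 losses alone and 624 both.

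In the list of PrE and XEN markers, 42 of 232 regions were lower (18.1%) and 4 higher (1.72%), with a median difference of -0.29. Over all regions 9.4% were lower and 8.58% higher, with a median of 0.00, and over all SOX17-bound regions 17.1% were lower, with a median of -0.35. Their summed level was 115 and 122 RPM at d4 and 76.3 and 73.2 RPM in XEN cells. Of 262 regions of endoderm TFs, 37 were lower (14.1%) and 13 higher (4.96%), with a median of -0.23. Gata6 had 6 of 19 lower and 0 higher. The one with the largest difference, 66.4 kb upstream, had 0.241 and 0.278 RPM at d4 and 0.0659 and 0.0462 RPM in XEN cells (-1.85 ± 0.30, adjusted p = 0.000203, limma). Foxq1, a forkhead factor, had 3 of 17 lower, the strongest with 0.764 and 0.695 RPM at d4 and 0.149 and 0.162 RPM in XEN cells (-1.81 ± 0.32). Gata4, a GATA family member, had 1 of 15 regions higher and 0 lower, a share under that of all regions, and a median difference of -0.18. The higher region, 36.7 kb upstream, had 0.196 and 0.24 RPM at d4 and 0.537 and 0.485 RPM in XEN cells (1.14 ± 0.30). Sox17 had 2 of 12 higher, of which that 105 kb upstream had 0.0703 and 0.0695 RPM at d4 and 0.236 and 0.208 RPM in XEN cells (1.54 ± 0.29), and 1 lower. At Foxa2, 4 of 31 were lower and 1 higher, and at the latter the XEN libraries stood apart, with 0.0312 and 0.231 RPM. Nr2f2, a nuclear receptor, had 3 of 16 higher, and Foxa1 2 of 5.

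Endocytic receptors serve the uptake of maternal proteins by visceral endoderm. Their list, which also includes genes that are not receptors, such as Cltc, Ap2a2 and Ctsl, had 16 of 72 regions lower and 0 higher. The share of 22.2% lower stood against 9.4% of all regions and 17.1% of SOX17-bound ones. The median of -0.49 was the lowest of the lists, and each of the 8 genes with a region had a loss. A region 2.90 kb upstream of Amn, the anchor of cubilin in the membrane, had 1.27 and 1.78 RPM at d4 and 0.316 and 0.231 RPM in XEN cells (-2.18 ± 0.30, adjusted p = 1.47e-05, limma). Lrp2, megalin, had 4 of 17 lower, the strongest with 0.749 and 0.823 RPM at d4 and 0.0971 and 0.185 RPM in XEN cells (-2.11 ± 0.31). Cubn, cubilin, and Dab2, their adaptor, had 3 of 8 and 3 of 18 lower. Genes of secreted visceral endoderm proteins had 4 of 26 regions higher (15.4%, against 8.58% of all regions) and 1 lower, with a median of 0.28, and 3 of the 4 gains were at a single gene, Apoa1. Apoa1 encodes the main protein of HDL, and the strongest of its 5 regions, in an intron of Sik3 and 101 kb from Apoa1, had 0.0804 and 0.0428 RPM at d4 and 0.166 and 0.208 RPM in XEN cells (1.54 ± 0.29). Ttr, transthyretin, had 1 of 8 lower.

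Basement membrane genes had 23 of 136 regions lower (16.9%) and 7 higher (5.15%), with a median of -0.22. Over all regions 9.4% were lower and 8.58% higher. However, 15 of the 23 belonged to Col4a1 and Col4a2, and all 7 gains to Itga6, a laminin receptor chain. At Sparc, a collagen-binding matrix protein, a region 11.1 kb upstream had 0.598 and 0.524 RPM at d4 and 0.0555 and 0.0923 RPM in XEN cells (-2.17 ± 0.29, adjusted p = 1.01e-05, limma). Both prolyl 4-hydroxylase genes P4ha1 and P4ha2, whose enzymes modify collagen, had losses, of -1.58 ± 0.27 and -1.84 ± 0.32. The laminin genes Lama1, Lamb1 and Lamc1 had 0 of 18, 0 of 5 and 0 of 25 regions called by limma in either direction. Parietal endoderm genes had 6 of 74 regions higher (8.11%, near the share of all regions) and 2 lower (2.70%), with a median of 0.02. Plat, the tissue plasminogen activator, had a region in an intron with 0.0703 and 0.0802 RPM at d4 and 0.295 and 0.323 RPM in XEN cells (1.53 ± 0.29). In the list of the anterior visceral endoderm, 3 of 54 were higher (5.56%) and 4 lower (7.41%), both under the shares of all regions. Among these, 2 of 9 were lower at Otx2, a homeobox factor (-2.21 ± 0.30 at the stronger), and 1 of 11 higher at Dkk1, a Wnt inhibitor (1.22 ± 0.29).

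Regions of pluripotency genes were more accessible at d4 than in XEN cells at 41 of 263 (15.6%), and 10 were higher in XEN cells (median -0.28). Over all regions 9.4% were lower, and over SOX17-bound regions 17.1%. Not all members fell from d0 on: the regions of Sall4, also in the list of endoderm TFs, had a median of 0.152 RPM at d0 and 0.395 RPM at d4. The largest difference was at Zfp42 (Rex1), a marker of naive ES cells, in an intron region with 0.749 and 0.673 RPM at d4 and 0.0867 and 0.0923 RPM in XEN cells (-2.79 ± 0.30, adjusted p = 9.88e-07, limma). The promoter of Dppa5a had 0.603 and 0.508 RPM at d4 and 0.0659 and 0.0462 RPM in XEN cells (-2.50 ± 0.28), and Dppa4 had 4 of 7 lower. Nanog had 1 of 5 lower, with 0.508 and 0.566 RPM at d4 and 0.239 and 0.139 RPM in XEN cells, after 1.13 RPM at d0. Sox2 had 4 of 26 lower, Esrrb 3 of 13 and Pou5f1, which encodes OCT4, 0 of 5. Tbx3, expressed in ES cells and in PrE, had 5 of 27 lower and 2 higher, and Tfcp2l1 and Foxd3 had 2 higher each and 0 lower. In the list of ES cell markers alone, 17 of 124 were lower (13.7%) and 6 higher (4.84%). Their summed levels were 34.0 and 35.8 RPM at d4 and 21.7 and 20.3 RPM in XEN cells.

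Signalling genes were mixed. Of 206 regions of receptor kinase and FGF or PDGF signalling, 24 were lower (11.7%) and 11 higher (5.34%), with a median of -0.22. Over all regions 9.4% were lower and 8.58% higher. Pdgfra, the PDGF receptor that marks PrE, had 0 of 17 called by limma in either direction. Fgfr2, an FGF receptor, had 3 of 19 lower, and Spred2, an inhibitor of the RAS pathway, 4 of 13. Kit, the receptor of stem cell factor, had 3 of 18 higher and 2 lower, and Dusp6, a phosphatase of ERK, 2 of 14 higher. Of 204 regions of Nodal, BMP and Wnt signalling, 20 were lower (9.80%, near the share of all regions) and 12 higher (5.88%), with a median of -0.10. Among these, Bmp6 and Bmp7, BMP ligands, had 3 of 11 and 3 of 6 lower and 0 and 1 higher, Smad3, which carries Nodal signals, 1 of 9 higher (1.74 ± 0.34), and Smad7, an inhibitor of the pathway, 2 of 23 lower and 1 higher. In the list of trophoblast TFs, 5 of 67 were higher and 5 lower (7.46% each, under the shares of all regions), with a median of 0.16. At Gata3, 3 of 17 were higher and 1 lower. Runx1 and Runx2, which are in the fibroblast list, had 3 of 24 and 2 of 11 lower and 0 higher.

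Whole chromosomes differed between XEN and d4 cells before centring. The median difference of the averages was highest on chromosome 16 (0.30), followed by 19 (0.23), 8 (0.22), 6 (0.21) and 18 (0.13), and lowest on chromosome 11 (-0.30), 17 (-0.27) and 15 (-0.27). On chromosome 16 it was 0.27 in XEN library A and 0.32 in library B, and on chromosome 11 -0.35 and -0.27. The median difference between the d4 libraries lay between -0.07 and -0.03 on every chromosome tested. The shifts of the chromosomes named were larger than that, whereas chromosome 14, at 0.03, was within it and the X chromosome had -0.01 in XEN library A and 0.13 in library B. They ran along the chromosomes: in windows of 10 Mb with at least 20 regions, the median was above 0 in all 10 windows of chromosome 16, all 7 of 19, all 13 of 8 and all 15 of 6, and in 0 of 13 windows of chromosome 11. By GATA6 cluster, the shifts were -0.07, 0.48 and 0.35 on chromosome 16 and -0.69, -0.21 and -0.09 on chromosome 11 for Early&Constant, Late and Transient regions. After centring, between 6.87% and 9.72% of the regions of a chromosome were called higher and between 7.62% and 10.8% lower.

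**Figure D5:**
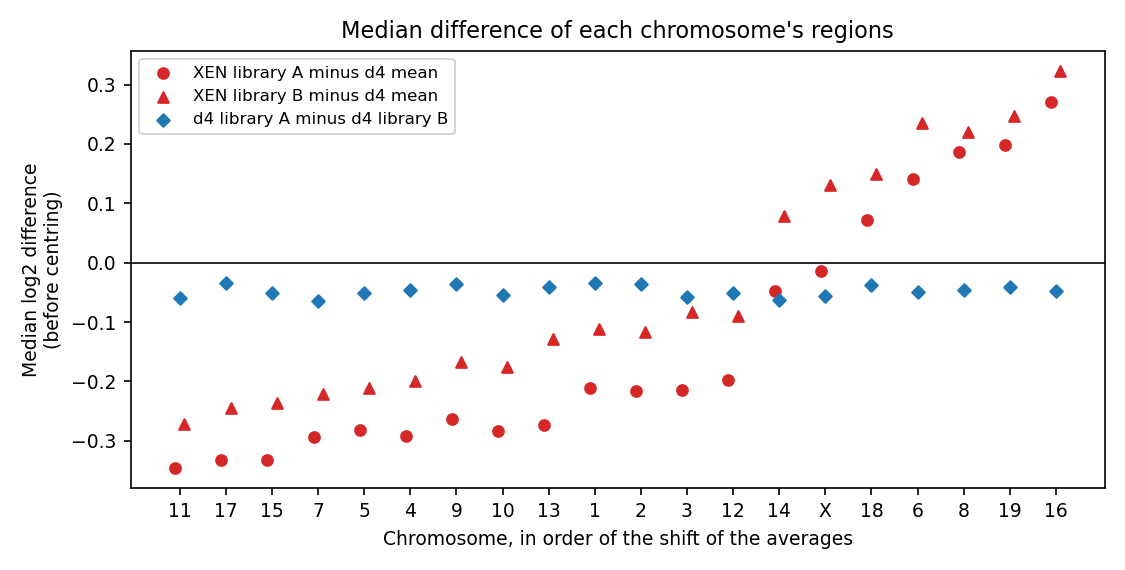
Median log2 difference of the regions of each chromosome before centring, for XEN library A (red circles) and B (red triangles) against the mean of the d4 libraries, and between the d4 libraries (blue diamonds). Chromosomes 6, 8, 18, 19 and 16 lie above 0 in both XEN libraries, and the d4 comparison stays between -0.07 and -0.03.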

How the data were processed

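The authors used bcl2fastq for read conversion, cutadapt for adapters, Bowtie2 for alignment (mm10) and SAMtools for duplicates, and took read counts in GATA6 peaks with bamsignals; the versions of these tools are not given in the sources used here. The deposited ATAC values are RPM, averaged by the authors over the libraries of a group, with 1 added read per region and library. The deposited motif scores came from the authors' scan. Of 105 columns, 45 of other assays and 7 of ENCODE were not used.

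Averages were decoded into whole reads: 2 libraries for d4 and 2 for XEN cells (3 labelled samples) at all regions, and 3 each for 8 h to d2 at 24753 regions whose values kept more than 12 digits; d0 gave no solution. Where the values had been rounded to 7 digits, the decoding was checked on rounded full-precision values, and 99.9% (d4) and 100% (XEN) came out right. Log2(RPM + 0.03) was centred by chromosome and fitted with limma 3.58.1 (R 4.3.3) over the 16 libraries (18.9 prior degrees of freedom, 10 residual, or 2 where only d4 and XEN libraries were resolved), p-values being adjusted by Benjamini-Hochberg over 42402 regions. Design and recovery were tested on simulated data. Nearest genes are protein-coding starts of GENCODE on the same build, and promoters lie within 1000 bp. Named were the 10 most different called regions per direction (100 kb apart), the 10 genes per direction with the largest excess of calls, and members of gene lists with a called region. Members and lists were chosen with earlier results of these data known, and support nothing independently. Alternatives were other pseudocounts, centrings, filters, limma-voom, fewer libraries and left-out libraries. No intervals from single counts are given, and depth limits mainly XEN library B.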

Additional observations from a re-analysis of the deposited data

How the results depend on the processing

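With a pseudocount of 0.15 RPM, 487 regions were called higher and 1575 lower (446 and 1666 past 2-fold), and with 0.006 RPM 6014 were past 2-fold higher. At regions of at least 0.1 RPM, 3098 were called higher and 2303 lower, of 26148 tested, and 2364 were past 2-fold lower. At the 24753 regions with reads of all groups, chosen after the data were seen, the counts were 2191 and 2339 (1986 and 2519 past 2-fold), since fewer regions were tested. With the promoter class at 0, also chosen afterwards, they were 11437 and 1201 (11286 and 1185 past 2-fold). The regions called higher were 2377 to 4833 with 1 library left out and the regions called lower 2670 to 5440: 2414 and 2804 without d4 library A, 2377 and 2670 without d4 library B, 4833 and 5440 without XEN library A, and 2559 and 3000 without XEN library B. Each of these fits leaves 1 library in a group, which is assumed to vary like the other groups, and outside the 24753 regions the spread comes from d4 and XEN libraries alone. Past 2-fold, the range was 3199 to 4947 higher and 3853 to 5734 lower.

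The median of Early&Constant regions was -0.25 with 0.15 RPM, -0.46 without centring, -0.17 after quantile normalisation, -0.20 at regions of at least 0.1 RPM, and reversed to 0.18 with the promoter class at 0. The median of Late regions was 0.19 with 0.006 RPM, 0.0816 with 0.15 RPM, 0.0693 without centring, 0.16 with one median, 0.15 in 10 Mb windows, 0.16 after quantile normalisation, 0.17 with the added read subtracted, 0.23 at regions of at least 0.1 RPM, 0.15 at regions with reads of all groups and 0.69 with the promoter class at 0. That of Transient regions was, in the same order without the one median, 0.18, 0.0732, 0.0381, 0.13, 0.00845, 0.12, 0.0541, 0.16 and 0.68. Leaving out 1 library gave -0.38 to -0.31 for Early&Constant, 0.15 to 0.17 for Late and 0.12 to 0.16 for Transient regions.

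The shift of chromosome 16 was 0.37 with 0.006 RPM, 0.16 with 0.15 RPM and 0.23 with the added read subtracted, and that of chromosome 11 -0.16 with 0.15 RPM and -0.40 with the added read subtracted. With 1 library left out they ranged from 0.257 to 0.340 and from -0.359 to -0.269. Causes of these changes were not tested. No paired analysis was possible because the columns are averages and the recovered libraries carry no replicate number.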
